A study of Mus musculus with 6 samples.

Results

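The regions described here are 51640 stretches of chromatin that carried called H3K27ac in DMSO-treated cells, overlapped no H3K27ac region called after CD treatment, lay outside the windows of 1 kb on either side of every annotated end of a protein-coding gene, and overlapped no Flag-Rxra peak. They are called DMSO-only distal regions below, and all of them lack a Flag-Rxra peak unless it is said otherwise. They were picked by that rule on chromosomes 1 to 19, X and Y from the 75482 regions of the DMSO list, of which they make up 68.4%, and they cover 18.5 Mb. Every one of the 51640 entered the description, with no further filter. The study mapped chromatin in OG2X129 mouse embryonic fibroblasts during chemical reprogramming to pluripotent stem cells, and CD3254, an agonist of retinoid X receptors (RXR), is named in its title. H3K27ac was mapped after CD treatment in 2 samples and after DMSO, the solvent control, in 2 samples. Flag-tagged Rxra was mapped with a Flag antibody in 2 samples of cells overexpressing it. All 3 groups share the same fibroblast line and culture medium. The labels give neither the day of reprogramming, nor whether replicates were separate cultures, nor which of CD and DMSO was given to the Flag-Rxra cells.

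H3K27ac is an acetylated lysine on histone H3 that marks active promoters and active enhancers, and enhancers away from promoters differ most between cell types. When a fibroblast is reprogrammed, enhancers of the fibroblast program are switched off while those of the new state are switched on. RXR proteins are nuclear receptors that bind DNA with partners such as retinoic acid, liver X, thyroid hormone and PPAR receptors, and retain corepressors or recruit coactivators depending on ligand. CUT&Tag brings a transposase to the antibody's target and releases the DNA fragments that lie there. The H3K27ac signal comes from bulk cells, so a mark lost in all cells and a mark present in fewer cells cannot be told apart.

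Each H3K27ac condition has 1 list of regions for both of its samples. Differences between the conditions therefore have no replicate error, and no test was made. The DMSO list had 75482 regions and the CD list 104437, against 28243 and 45999 peaks in the Flag-Rxra lists. The lists hold no read counts, so depth is unknown, and no control library was used here. The labelled cell type was checked against 8 fibroblast genes. An H3K27ac region lay within 1 kb of an end of 3 of them in CD and of 3 in DMSO, which is 37.5% in each, against 38.3% of all protein-coding genes in CD and 35.8% in DMSO. Genes of other cell types had such a region in DMSO at 4 of 8 endothelial, 1 of 9 neural, 1 of 7 muscle, 1 of 7 keratinocyte and 0 of 8 macrophage genes. By this measure the lists do not set the fibroblast genes apart.

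Although the rule left out the ends of coding genes, some DMSO-only distal regions lay on starts of other transcripts. RefSeq promoters of GRCm38.p6, the assembly called mm10, run from 250 bases before to 50 bases after a transcript's start. A DMSO-only distal region overlapped 345 of 32851 such promoters (1.05%), those of 218 long non-coding and 81 coding genes, and covered 63 of them in full. CD-only distal regions, chosen by the mirrored rule, overlapped 467 (1.42%). The rule lowers both shares, since only 13648 of the 32851 promoters lay outside the gene-end windows. The 6 promoters below were covered over all 300 bases and belong to genes with well known roles, for which they were picked after their values were seen. Those of coding genes belong to transcripts that start over 1 kb from either annotated end of the gene. Capitals mark matches, on either strand, to TTGCNNAA (the CEBP motif), AGGTCA (the nuclear receptor hexamer), GGAATG (the TEAD motif), CACGTG (the E-box) and TGANTCA (the AP-1 motif). The motifs do not overlap each other here, and the Mexis promoter had none.
Ak4 promoter, chr4:101419039-101419338, plus strand: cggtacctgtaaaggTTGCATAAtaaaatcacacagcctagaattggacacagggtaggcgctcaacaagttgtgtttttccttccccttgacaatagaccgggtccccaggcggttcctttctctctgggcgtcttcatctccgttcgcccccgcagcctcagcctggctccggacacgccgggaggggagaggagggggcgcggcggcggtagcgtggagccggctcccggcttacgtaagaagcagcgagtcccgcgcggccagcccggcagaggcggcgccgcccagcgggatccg
Atxn7 promoter, chr14:14012241-14012540, plus strand: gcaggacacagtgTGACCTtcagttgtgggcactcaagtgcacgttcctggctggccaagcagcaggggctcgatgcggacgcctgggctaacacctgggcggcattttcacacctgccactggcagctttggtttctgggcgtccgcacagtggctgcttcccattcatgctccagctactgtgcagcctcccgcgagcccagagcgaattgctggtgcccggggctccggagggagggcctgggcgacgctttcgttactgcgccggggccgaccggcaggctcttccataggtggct
Bcl6 promoter, chr16:23981234-23981533, minus strand: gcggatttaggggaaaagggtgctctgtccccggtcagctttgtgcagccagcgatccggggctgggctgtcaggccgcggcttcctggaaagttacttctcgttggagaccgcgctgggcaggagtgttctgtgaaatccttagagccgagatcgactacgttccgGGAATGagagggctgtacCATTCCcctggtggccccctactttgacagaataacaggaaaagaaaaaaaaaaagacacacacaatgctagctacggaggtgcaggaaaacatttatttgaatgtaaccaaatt
Pik3r1 promoter, chr13:101692581-101692880, minus strand: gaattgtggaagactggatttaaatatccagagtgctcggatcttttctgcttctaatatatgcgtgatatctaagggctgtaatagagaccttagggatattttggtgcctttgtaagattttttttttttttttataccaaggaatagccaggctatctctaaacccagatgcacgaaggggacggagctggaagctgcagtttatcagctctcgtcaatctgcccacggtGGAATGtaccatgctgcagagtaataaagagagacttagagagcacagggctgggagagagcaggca
Thrb promoter, chr14:17981394-17981693, plus strand: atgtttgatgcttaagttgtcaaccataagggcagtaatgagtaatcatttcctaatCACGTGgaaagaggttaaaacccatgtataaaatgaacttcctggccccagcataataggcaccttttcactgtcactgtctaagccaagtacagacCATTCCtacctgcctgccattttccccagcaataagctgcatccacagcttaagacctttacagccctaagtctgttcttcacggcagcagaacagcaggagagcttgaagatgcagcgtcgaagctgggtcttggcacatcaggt
Mexis promoter, chr4:53265443-53265742, minus strand: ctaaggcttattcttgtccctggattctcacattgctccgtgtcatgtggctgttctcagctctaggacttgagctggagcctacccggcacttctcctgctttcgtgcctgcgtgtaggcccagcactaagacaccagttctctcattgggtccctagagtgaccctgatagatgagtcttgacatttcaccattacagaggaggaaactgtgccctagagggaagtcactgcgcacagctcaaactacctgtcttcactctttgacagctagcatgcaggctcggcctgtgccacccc

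The promoter of Ak4, a mitochondrial adenylate kinase, was the richest in CpG of the 6, with 29 CpG in its 300 bases and a GC content of 64.3%. Its region had a −log10 q of 2.13, and the nearest CD region began 678 bp away and the nearest Flag-Rxra peak 96 bp away. The Atxn7 promoter belongs to a subunit of the SAGA histone acetyltransferase complex and had a nuclear receptor hexamer, a −log10 q of 1.74 and its nearest CD region 5401 bp away. The Bcl6 promoter, of a transcriptional repressor of B cells and macrophages, had a pair of TEAD matches facing opposite ways and a −log10 q of 1.61. The Thrb promoter belongs to thyroid hormone receptor beta, a partner of RXR, and is a start inside the gene, which spans chr14:17659225-18040097. Of the 6 it stood most alone, with the nearest CD region 32498 bp and the nearest Flag-Rxra peak 34500 bp away. Within 1 kb of an end of Thrb, an H3K27ac region was called in CD and not in DMSO. The regions on Pik3r1, the regulatory subunit of PI3 kinase, and on Mexis, a non-coding RNA that amplifies Abca1 expression in mouse macrophages, had CD regions 946 and 740 bp away. The 5 of the 6 other than Ak4 had a −log10 q below 2. A match to a motif is a description of letters and not a binding site.

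Taking 1 promoter per gene, the 299 promoters under DMSO-only distal regions held the AP-1 motif in 11.0% of cases (exact Clopper-Pearson 95% interval 7.72 to 15.1), against 8.78% of the 433 under CD-only distal regions and 9.67% of the 10985 lying outside the gene-end windows. All such intervals in this text cover counting error only, since neighbouring regions are not independent. The TEAD motif was in 19.7% (15.4 to 24.7), against 16.4% under CD-only distal regions and 17.1% outside the windows. The nuclear receptor hexamer was in 24.1% (19.3 to 29.3), against 21.9% and 19.3% in those sets. The CEBP motif was in 11.0%, against 13.2% and 12.3%, and the E-box in 4.35%, against 6.93% and 5.65%. Over all 27025 genes with a promoter the shares were 7.90% for AP-1, 14.6% for TEAD, 16.2% for the hexamer, 10.7% for CEBP and 7.10% for the E-box. For each of the 5 motifs, the interval under DMSO-only distal regions held the share under CD-only distal regions. A promoter counted as under a region at any overlap and was searched whole, so a match may lie outside the region. The 63 promoters covered in full, from 56 genes, held AP-1 in 14.3% (6.75 to 25.4) and TEAD in 25.4% (15.3 to 37.9). They held the hexamer in 22.2% (12.7 to 34.5), and CEBP and the E-box in 6.35% each (1.76 to 15.5). Each of these intervals held the share of the 299 promoters.

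A DMSO-only distal region overlapped 15 of 1005 microRNA hairpins (1.49%), 9 of them in full, and CD-only distal regions overlapped 21 (2.09%). Of the 1005 hairpins, 875 lay outside the gene-end windows. The mature sequences of the hairpins with well known roles are shown 5′ to 3′ with the seed, bases 2 to 8, in capitals, because a microRNA finds its targets through the seed. No pair of mature microRNAs under these regions shared a seed.
mmu-miR-295-3p: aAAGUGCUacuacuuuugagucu
mmu-miR-200c-3p: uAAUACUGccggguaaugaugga
mmu-miR-200c-5p: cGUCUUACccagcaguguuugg
mmu-miR-100-5p: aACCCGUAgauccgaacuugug
mmu-miR-140-3p: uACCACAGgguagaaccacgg
mmu-miR-7b-5p: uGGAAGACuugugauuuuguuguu

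The miR-290 to miR-295 cluster is expressed in mouse embryonic stem cells, and Mir295 is its last hairpin. The DMSO-only region there, chr7:3220797-3221040, had a −log10 q of 1.20, and a CD region with a −log10 q of 1.03 lay 354 bp away, so both lists were near their lower limit. A CD-only distal region overlapped another hairpin of the cluster, Mir293. Mir200c represses Zeb1 and Zeb2 and so maintains epithelial cells. The region chr6:124718341-124718724 covered 50 of its 69 hairpin bases with a −log10 q of 1.20, its nearest CD region 1110 bp and its nearest Flag-Rxra peak 265 bp away. Mir5129, of which 18 of 78 bases were covered, lies inside Zeb2 itself. The region on Mir100, chr9:41530961-41531555, was the strongest of the 5 printed, with a −log10 q of 2.08. Mir140, a cartilage microRNA within Wwp2, and Mir7b lay under regions with −log10 q of 1.24 and 1.03. The other hairpins were Mir6898, Mir7655, Mir6996, Mir7222, Mir7661, Mir8104, Mir378c, Mir3547 and Mir5617.

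DMSO-only distal regions were most of what the DMSO list held outside the gene-end windows. Of 61066 distal DMSO regions without a Flag-Rxra peak, 84.6% overlapped no CD region, against 80.8% of all DMSO regions. By the mirrored rule, 80435 of 90077 distal CD regions without a Flag-Rxra peak (89.3%) overlapped no DMSO region. The rule used this contrast, so the shares only describe the lists. Of the other DMSO regions, 4088 were DMSO-only and distal but held a Flag-Rxra peak, and DMSO-only regions at gene ends numbered 3351 without and 1917 with such a peak. Distal regions shared with CD numbered 9426 without and 2486 with a Flag-Rxra peak, and shared regions at gene ends 777 without and 1797 with one. Shared distal regions below are the 9426 without a Flag-Rxra peak unless it is said otherwise.

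**Figure D1:**
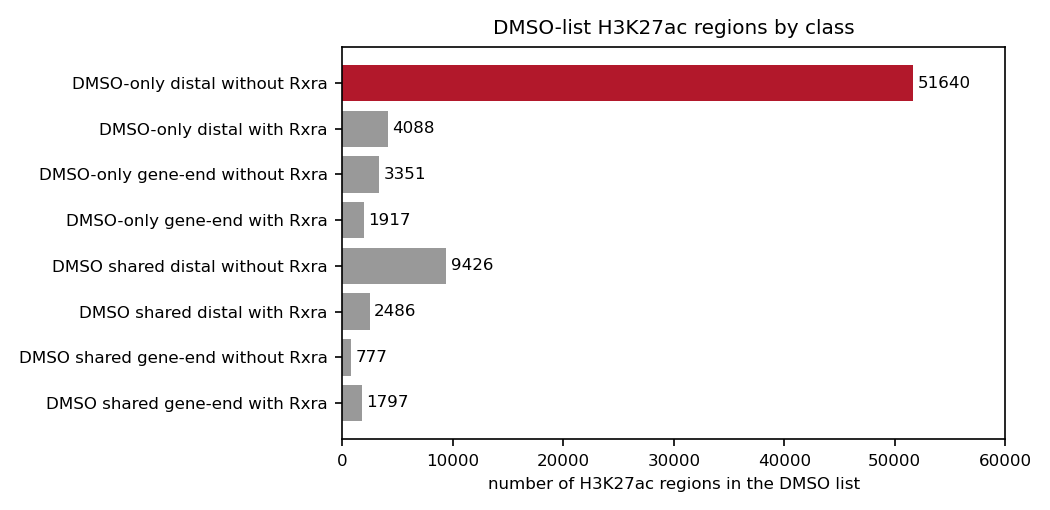
Number of H3K27ac regions of the DMSO list in each class (horizontal axis), where shared means overlapping a CD region, gene-end means within 1 kb of an end of a protein-coding gene, and with Rxra means overlapping a Flag-Rxra peak of either sample. The 51640 DMSO-only distal regions without Rxra, in red, outnumber the 7 other classes together.

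The regions were weak and narrow. Their median −log10 q, the authors' deposited value for each region, was 1.46 (quartiles 1.25 and 1.76), where the list begins at 1.00. Their median fold over the authors' background was 3.11 (quartiles 2.96 and 3.34) and the highest was 10.3. The median width was 281 bp (quartiles 194 and 462), in a range from 146 to 2198 bp. Shared distal regions without a Flag-Rxra peak had a median −log10 q of 1.63, a fold of 3.18 and a width of 392.5 bp. DMSO-only distal regions with a Flag-Rxra peak had 1.55, 3.002 and 426 bp for these 3 measures. CD-only distal regions, in the CD list, had 1.36, 3.14 and 249 bp. A low −log10 q and a small width were therefore not particular to DMSO-only distal regions.

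A −log10 q of 2 or more was reached by 7451 DMSO-only distal regions (14.4%, 14.1 to 14.7). The share was 29.3% (28.4 to 30.2) in shared distal regions without a Flag-Rxra peak, 46.3% in those with one, and 18.4% (17.2 to 19.6) in DMSO-only distal regions with one. In CD-only distal regions it was 11.6% (11.4 to 11.9). DMSO-only regions at gene ends without Flag-Rxra had 13.8%, close to the share of DMSO-only distal regions. With a Flag-Rxra peak, DMSO-only regions at gene ends had 22.8% (20.9 to 24.7), above the 18.4% of those away from gene ends. At 3 or more there were 928 DMSO-only distal regions (1.80%), against 927 shared distal ones without a Flag-Rxra peak (9.83%) and 616 with one (24.8%). At 5 or more there were 56 (0.108%), against 248 (2.63%) and 374 (15.0%) in those classes. The highest −log10 q was 19.8 among DMSO-only distal and 102 among shared distal regions without a Flag-Rxra peak, while those with one reached 19983.

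**Figure D2:**
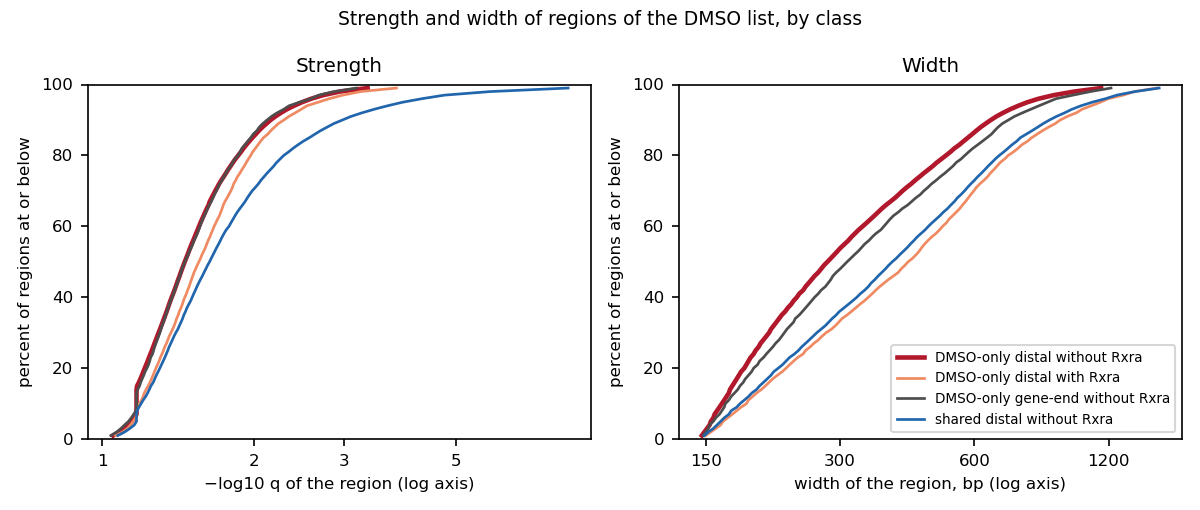
Percent of regions at or below each −log10 q (left, log axis) and each width in bp (right, log axis) for 4 classes of the DMSO list, drawn from their 1st to 99th percentile. The red curve of DMSO-only distal regions without Rxra, median 1.46, lies on that of DMSO-only gene-end regions and left of shared distal regions without Rxra, median 1.63, and in width it lies left of all 3.

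The share of distal regions without a Flag-Rxra peak that were DMSO-only was lower in stronger regions. It was 89.9% at −log10 q from 1 to 1.25, 84.4% from 1.5 to 2 and 78.0% from 2 to 3. From 3 to 5 it was 56.2% (872 of 1551), from 5 to 10 it was 21.6% (50 of 231), and from 10 up it was 8.22% (6 of 73). Width gave the same order, with 90.6% below 200 bp, 83.5% from 300 to 500 bp and 61.9% (1048 of 1694) from 1000 bp up. When only regions at 2 or more were kept in both lists, 9132 regions met the rule. Of these, 7451 also met it before, and 1681 overlapped a CD region that was itself below 2.

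The strongest 10 regions, with at most 1 per 100 kb, had nearest coding genes of unrelated roles. The first, chr6:106897386-106897710, had a fold of 10.3 and a −log10 q of 19.8, and lay 97449 bp from Crbn, the substrate receptor of a ubiquitin ligase, with no CD region within 10379 bp. The second, chr1:44201264-44201438, had a fold of 8.44 and a −log10 q of 17.4 and lay 2719 bp from Mettl21e, a methyltransferase gene. The third, chr4:133585652-133585806, lay inside Gpn2 with a fold of 6.92 and a −log10 q of 16.0. The next regions lay 40105 bp from Ap1s2 (−log10 q of 14.3) and inside Slc34a2, a sodium and phosphate transporter (12.3). Then came regions 95100 bp from Klf12, a transcriptional repressor (11.7), inside Nupl2, a nuclear pore protein (9.82), and 23185 bp from Slc7a12 (9.61). The region inside Tcf3, an E protein transcription factor, had 8.78, and the one inside Farp1 had 8.61. Of the 10, 3 were narrower than 200 bp, and the nearest CD region was 2192 bp (Tcf3) to 48455 bp (Ap1s2) away.

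The share inside genes was within a few percentage points of that of the other distal classes. It was 54.1% (53.6 to 54.5) by midpoint and protein-coding genes, against 53.0% (52.0 to 54.0) of shared distal regions without a Flag-Rxra peak, 53.8% (52.2 to 55.3) of DMSO-only distal regions with a Flag-Rxra peak and 52.8% (52.5 to 53.2) of CD-only distal regions. Long non-coding genes held 11.1% (10.8 to 11.4), 37.6% lay in neither kind of gene, and 6391 (12.4%) lay over 100 kb from any coding gene. Over the 19 autosomes the share inside genes ran from 43.0% on chromosome 13 to 61.4% on chromosome 7.

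A CD region was often near a DMSO-only distal region without touching it. The median gap to the nearest CD region was 4164 bp (quartiles 1672 and 8916), and 8211 regions (15.9%, 15.6 to 16.2) had one within 1 kb. From CD-only distal regions to the nearest DMSO region the median was 6474 bp and 11.0% had one within 1 kb, and the DMSO list is the shorter one. The nearest Flag-Rxra peak was at a median of 8969 bp, and 8.96% had one within 1 kb, against 11.97% of shared and 7.17% of CD-only distal regions. At the edge of the rule, 254 regions had a CD region within 20 bp, with a median −log10 q of 1.45 and a width of 317 bp. A further 407 distal regions were left out for an overlap of at most 20 bp, and had 1.45 and 300 bp. For the Flag-Rxra condition, 123 regions had a peak within 20 bp and 224 were left out for an overlap of at most 20 bp.

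**Figure D3:**
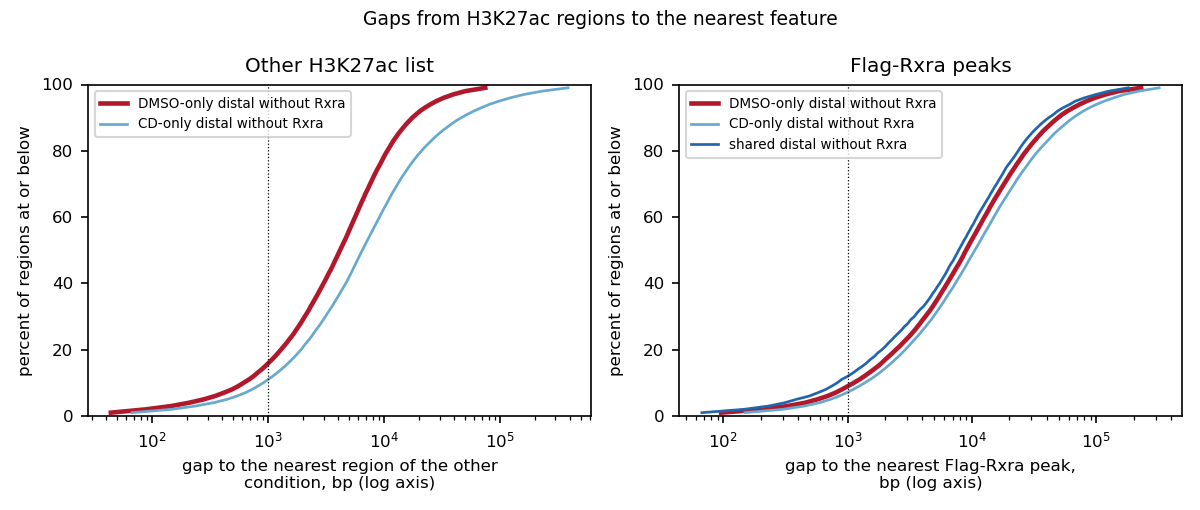
Percent of regions at or below each gap in bp (log axis) to the nearest region of the other H3K27ac list (left) and to the nearest Flag-Rxra peak of either sample (right), drawn from the 1st to the 99th percentile. The dotted line marks 1 kb, where DMSO-only distal regions reach 15.9% on the left and 8.96% on the right, and CD-only distal regions 11.0% and 7.17%.

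Across chromosomes there were 64.2 DMSO-only per 100 CD-only distal regions, and the 19 autosomes ran from 60.4 (chromosome 6) to 68.9 (chromosome 9). The X chromosome had 44.2, with 451 DMSO-only against 1021 CD-only distal regions. All DMSO regions together numbered 54.9 per 100 CD regions on X and 69.6 to 76.1 on autosomes, so the low value of X was not limited to DMSO-only distal regions. With an equal number of strongest regions from each list X had 79.1, below the autosomes at 90.3 to 102. With regions at 2 or more it had 78.6, within the autosomes at 73.2 to 98.5, and the low rank of X did not hold there. The Y chromosome had 6 DMSO-only and 17 CD-only distal regions.

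Most of the regions stood alone. When regions at most 5 kb apart were chained, 37100 (71.8%) had no neighbour, and only 30 chains held 5 or more. CD-only distal regions, which are more numerous, were alone in 64.6% of cases and formed 125 such chains. The largest chains held 6 DMSO-only distal regions, and there were 8. The first lay inside Atp6v0a1, a subunit of the proton pump of lysosomes, on chr11:101034183-101050547, and its stretch also held 3 CD-only distal regions. The second lay inside Lipc, hepatic lipase, with 2 CD regions. The chains near Cyp2s1, Kng2 and Gm8126, the last a gene known by its number alone, held 0 CD regions, as did the one 108065 bp from Rbpj, the DNA-binding factor of Notch signaling. Across one end of Vegfa, the angiogenic growth factor, chr17:46029554-46044294 held 6 DMSO-only distal regions, 1 CD region and 3 Flag-Rxra peaks. The chain inside Chst11, a chondroitin sulfotransferase, held 1 CD region, which was not CD-only.

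For a view by gene, regions were counted by their midpoint between 50 kb before and 50 kb after each protein-coding gene. A gene is called an excess when its window held at least 3 DMSO-only distal regions and at least 2 times as many as CD-only distal regions, and a deficit by the same rule with the lists exchanged. Of 21887 genes, 723 (3.30%) were an excess and 6687 (30.6%) a deficit. DMSO-only distal regions were the more numerous at 3482 genes (15.9%), the fewer at 14224 (65.0%), and equal at 4181. The median gene had 3 DMSO-only and 6 CD-only distal regions, and its difference was -2. The CD list is the longer one. With only its strongest 75482 regions, as many as in the DMSO list, 2337 genes were an excess and 3501 a deficit, and the median difference was 0. That setting only takes regions out of the CD list, so it cannot end an excess. Calls given below with equal numbers stand beside these 2337 and 3501 of 21887 genes, and not beside 3.30% and 30.6%. Counts below are DMSO-only first and CD-only after it, with the lists as deposited, and none was tested. Windows of neighbouring genes overlap, so a region can count for several genes, and 9861 regions (19.1%) lay in no window.

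Among excess genes in separate loci the largest surplus was at Map4k4, a kinase upstream of JNK, where 24 DMSO-only distal regions stood against 11 CD-only ones, 14 of the 24 inside the gene. Next Lhfpl2 had 22 against 11, Hmbox1, a homeobox factor, 18 against 8, Masp1, a protease of the lectin complement pathway, 17 against 7, and Pth1r, the parathyroid hormone receptor, 16 against 6. Arhgap15, a Rac inhibitor, had 17 against 8, Cfdp1 had 15 against 6, and Ankdd1a had 14 against 5. Emilin2, a matrix glycoprotein, and Rfx7, a transcription factor, each had 12 against 3. Rbfox1, a splicing factor, with 45 against 32 and so the same difference as Map4k4, and Runx2, the master factor of bone, with 33 against 22, were among the 12 largest differences but below the fold for an excess. With equal numbers Map4k4 had 24 against 8 and Runx2 34 against 18. In the opposite direction the largest differences were at long genes. The window grows with the gene, so a ranking by difference favours long genes in both directions. Rbfox1 and Arhgap15 above had windows of 1628 and 747 kb. Zfhx3, a homeobox factor, had 20 against 58, Auts2 had 42 against 75, Cdh13, an atypical cadherin, 28 against 61, Arhgap26 30 against 60, and Dst, a cytoskeletal linker, 12 against 38. Auts2 was below the fold for a deficit, and of the other 4 named here only Dst was still a deficit with equal numbers, at 12 against 29.

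**Figure D4:**
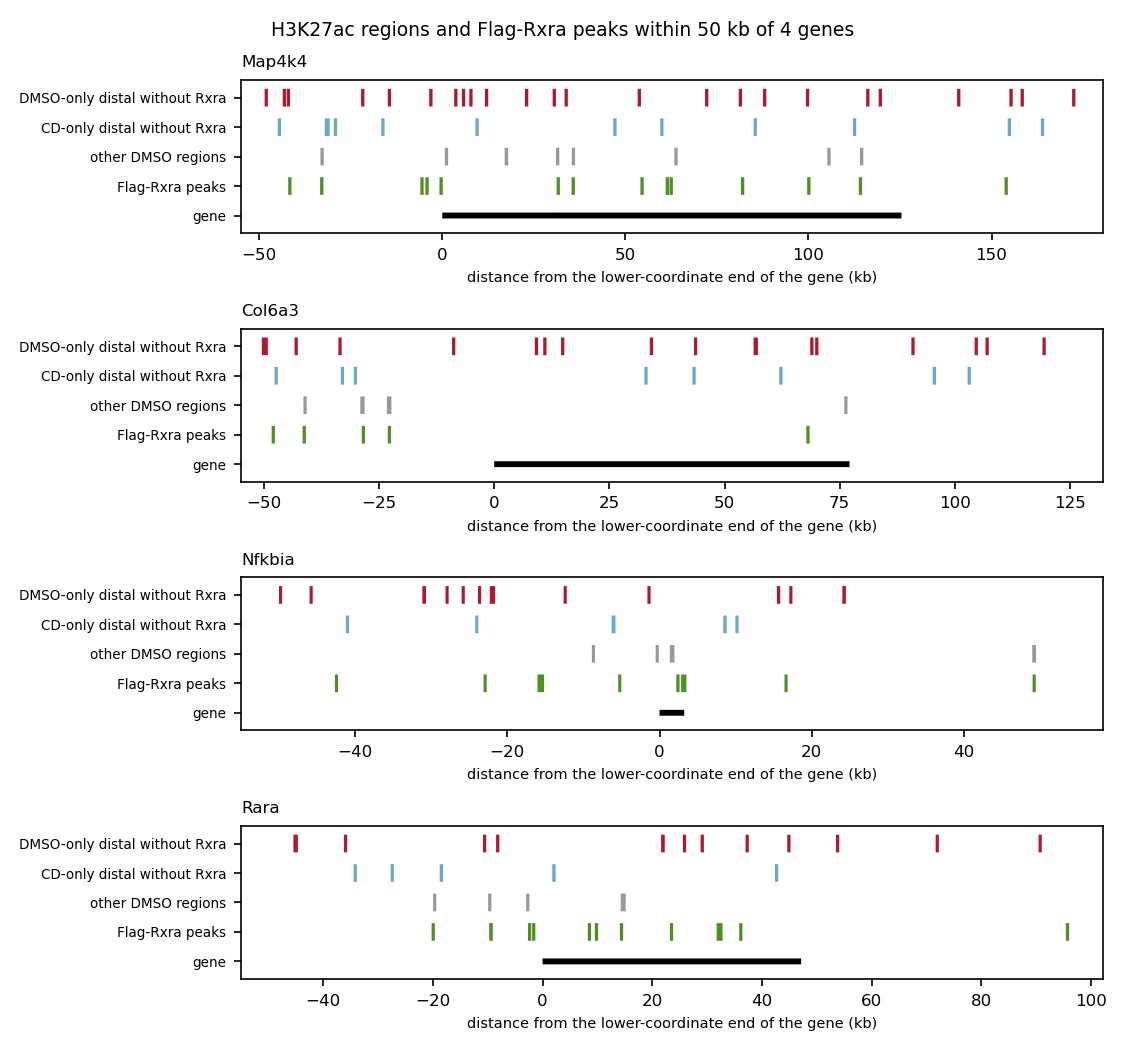
H3K27ac regions and Flag-Rxra peaks (of either sample, merged) within 50 kb of Map4k4, Col6a3, Nfkbia and Rara, by distance in kb from the lower-coordinate end of each gene, with the gene as a black bar and narrow regions widened to a visible tick about their midpoint. DMSO-only distal regions (top row) number 24, 16, 12 and 12, and CD-only distal regions (second row) 11, 8, 5 and 5. A −log10 q of 2 or more is reached by 5, 2, 0 and 1 of the DMSO-only distal regions.

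Among genes of the fibroblast state, mesenchymal transcription factors included 2 excess and 8 deficit genes of 20, against 3.30% and 30.6% of all genes, and the median difference was -2.5. Twist1, a basic helix-loop-helix factor of mesenchyme, had 5 against 0, and Snai2, a repressor of E-cadherin, had 4 against 2. Zeb1 and Zeb2, repressors of epithelial genes, held the most regions, with 12 against 14 and 12 against 11, and Prrx1, a homeobox factor of limb mesenchyme, had 9 against 10. The limb factors Pitx1 and Tbx15 were deficits, with 1 against 14 and 0 against 8. So were Foxc2, Foxf1, Tbx5, Hand2, Tcf21 and Osr1, and Foxc2 and Foxf1 are neighbours that share part of their windows. Of the 8 deficits, 4 were called with equal numbers.

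Fibroblast matrix and cytoskeleton genes included 1 excess and 5 deficits of 24, against 3.30% and 30.6% of all genes, with a median difference of -1.5. Col6a3, a chain of collagen VI, had 16 against 8. Fbn1, fibrillin of elastic microfibrils, had 19 against 28, and Col5a1, a collagen V chain, had 17 against 17. The deficits were Sparc, a collagen-binding matrix protein, with 6 against 12, Pdgfra, the receptor of platelet-derived growth factor on mesenchymal cells, with 6 against 14, Thy1, Fap and Postn. With equal numbers the list had 4 excess and 2 deficit genes and its median difference was 1. All protein-coding genes then had a median of 0.

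For factors known to act at fibroblast enhancers and for the TGF-beta pathway the counts stand beside 3.30% excesses and 30.6% deficits over all genes. Of 15 AP-1 genes, Fosl1 alone was an excess, with 4 against 1, and 2 were deficits, among them Maf with 2 against 6. Fosl2 had 8 against 7, Maff 7 against 9 and Batf 7 against 5. Of 14 TEAD, RUNX and CEBP genes, 0 were an excess and 4 a deficit, namely Tead2, Tead3, Cebpa and Tead4, the last with 2 against 12. Runx1, a factor of blood and mesenchyme, had 20 against 29, and Wwtr1, the TEAD coactivator TAZ, had 18 against 14. TGF-beta genes, a pathway that favours the mesenchymal state, had 0 excess and 6 deficit genes of 23, among them Tgfbr1, a type I receptor, with 3 against 9, and the ligand Tgfb3 with 5 against 11. The others were Bmpr2, Smad5, Inhba and Acvr2a. Ltbp1, a TGF-beta binding protein of the matrix, had 25 against 43, Tgfbr3 18 against 20 and Ltbp2 15 against 13. With equal numbers the AP-1 list had 1 excess and 1 deficit gene. The TEAD, RUNX and CEBP list then had 0 and 3, and the TGF-beta list 2 and 2.

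Inflammation is in the study's title. Of 26 genes for inflammatory cytokines and NF-kB, 3 were an excess (11.5%, against 3.30% of all genes) and 8 a deficit (30.8%, against 30.6%), and the median difference was -2, that of all genes. Nfkbia, the inhibitor that holds NF-kB in the cytoplasm, had 12 against 5, Tlr4, the receptor of bacterial lipopolysaccharide, 7 against 3, and Ccl5, a chemokine, 7 against 3. Of the 12 at Nfkbia, 0 reached a −log10 q of 2 and 0 lay inside the gene. At Tlr4 and at Ccl5, 1 of the 7 reached 2. The deficits were Ccl7, Il33, Il1a, Csf2, Nfkbiz, Tnfaip3 and the subunits Rela, with 4 against 8, and Rel, with 4 against 10. Nfkb1 had 14 against 16 and Csf1 10 against 15. Of 24 interferon and nucleic acid sensing genes, Ifnar1, a chain of the type I interferon receptor, was an excess with 12 against 6. Tbk1, the kinase that activates Irf3, had 12 against 10, and Irf7 8 against 6. The 5 deficits were Ifih1, a sensor of double-stranded RNA, with 1 against 8, Ddx58, Irf9, Usp18 and Ifit3. With equal numbers 2337 of all 21887 genes were an excess and 3501 a deficit. There were then 7 excess and 3 deficit genes of 26 for inflammation, and 5 and 1 of 24 for interferon. The matrix, RXR partner and housekeeping lists then also had more excess than deficit genes, at 4 and 2, 5 and 2, and 3 and 2.

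Of 25 pluripotency factors 0 were an excess, against 3.30% of all genes, and 5 a deficit, against 30.6%, and the median difference was -2, that of all genes. No DMSO-only distal region lay in the windows of 5 of the 25, and of 4413 of all 21887 genes, which is a like share. With equal numbers 3 were an excess and 4 a deficit. The deficits were Klf5, with 6 against 13, Sall4, with 3 against 10, Mycn, with 0 against 5, Esrrb and Nr5a2. Tet2, an enzyme that oxidizes methylcytosine, had 12 against 8, Tet1 8 against 13, and Klf2 7 against 12. Of 15 extraembryonic endoderm genes 0 were an excess and 5 (33.3%) a deficit, and with equal numbers 2 and 3. The deficits were Hnf4a, with 7 against 14, Sox17, Foxa2, Pdgfra and Sall4, the last pair counted above as well. Cubn, an endocytic receptor, had 21 against 17, Gata4 10 against 12 and Dab2 8 against 9.

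Epithelial genes, which a fibroblast must turn on to become a pluripotent cell, had fewer DMSO-only than CD-only distal regions at 16 of 17 genes and an equal number at the other 1. Of the 17, 9 (52.9%) were a deficit, against 30.6% of all genes, and 0 were an excess. Their windows summed to 66 DMSO-only and 143 CD-only distal regions, and the median difference was -4. Tjp1, a scaffold of tight junctions, had 10 against 21, Ocln, occludin, 2 against 11, Grhl2, a factor of epithelial identity, 3 against 11, and Epcam, an epithelial adhesion protein, 4 against 10. Esrp1 and the claudins Cldn3, Cldn4 and Cldn7 were among the others, and Cldn3 and Cldn4 are neighbours. Cdh1, E-cadherin, had 7 against 12 and Dsp, desmoplakin, 7 against 8. With equal numbers 7 were still a deficit, the sums were 68 and 111, and the median difference was -2.

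**Figure D5:**
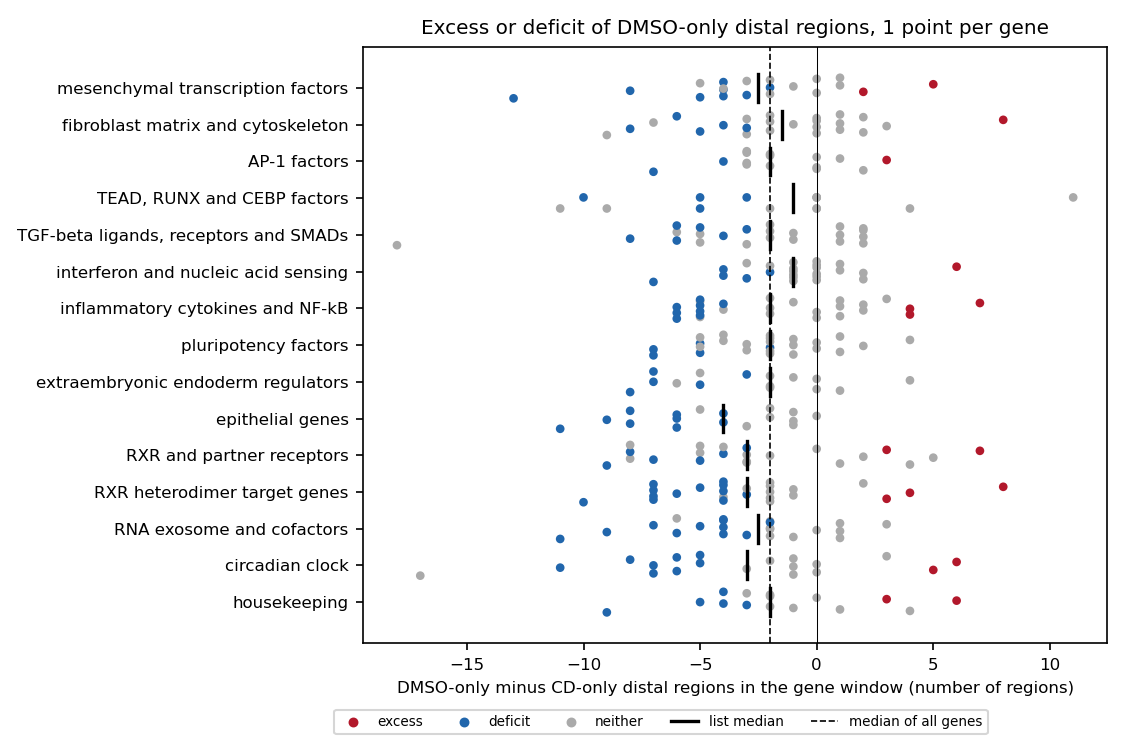
DMSO-only minus CD-only distal regions in the window of each gene (horizontal axis, number of regions), 1 point per gene, for 15 gene lists, with excess genes in red and deficit genes in blue, black bars at the list medians and a dashed line at -2, the median of all 21887 genes. The epithelial list has the lowest median at -4 and no point right of 0, while inflammation and RXR target lists have 3 red points each.

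RXR and its partners and coregulators included 2 excess and 6 deficit genes of 22, against 3.30% and 30.6% of all genes. Rara, the retinoic acid receptor alpha, had 12 against 5, and Rxrb, a second RXR, had 6 against 3. Rxra itself had 19 against 15 and Rarb, a retinoic acid receptor that is also a target of its family, 44 against 46. The deficits were Ppara, the receptor of fatty acids, with 4 against 13, Nr1h3, the liver X receptor alpha, with 3 against 7, the coregulators Ncoa3 and Ncor1, Vdr and Nr4a2.

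Of 25 genes that RXR heterodimers are known to regulate, 3 were an excess, against 3.30% of all genes, and 12 (48.0%) a deficit, against 30.6%. The median difference was -3, against -2 over all genes. Stra6, a receptor for vitamin A uptake, had 15 against 7, Pltp, a phospholipid carrier of lipoproteins, 7 against 3, and Acadl, an enzyme of fatty acid oxidation, 5 against 2. The sterol exporters Abca1 and Abcg1, targets of the liver X receptor, had 4 against 11 and 4 against 14. Other deficits were Cpt1a, Cyp26a1, Srebf1, Mylip, Nr1h3, Crabp2, Cyp24a1, Pdk4 and Fabp4, and Plin2 had 8 against 9. With equal numbers 3 of the 25 were an excess and 4 a deficit, against 2337 and 3501 of all 21887 genes. The higher share of deficits did not hold there, being like that of all genes. The median difference was then -2, against 0 over all genes.

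The RNA exosome, which the title names, degrades and trims RNA. Of 22 exosome and cofactor genes 0 were an excess, against 3.30% of all genes, and 11 a deficit, against 30.6%. The median difference was -2.5, against -2 over all genes. Mtrex, the nuclear helicase of the exosome, had 4 against 15, Tent4b, a poly(A) polymerase that tags its targets, 4 against 13, and Dis3l, a cytoplasmic nuclease, 1 against 8. The others were Exosc1, Exosc3, Exosc5, Exosc8, Zcchc7, Zfc3h1, Mphosph6 and Ttc37. Exosc7 had 9 against 15, Exosc4 7 against 4 and the nuclease Dis3 7 against 6. With equal numbers 1 was an excess and 6 a deficit.

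Of 19 genes of the circadian clock 2 were an excess and 8 a deficit, against 3.30% and 30.6% of all genes. Both excesses encode the REV-ERB repressors, Nr1d1 with 9 against 4 and Nr1d2 with 10 against 4. Nr1d1 overlaps Thra, which had 11 against 6, so the windows of these neighbours share regions. Of the 9 regions at Nr1d1, 0 lay inside the gene. Arntl, the activator that the REV-ERB proteins repress, was a deficit with 9 against 20, but had 9 against 9 with equal numbers. Tef, with 1 against 9, Dbp, Cry2, Nfil3, Bhlhe40 and Bhlhe41 were among the other deficits, Rora had 21 against 38 and Npas2 18 against 15. With equal numbers 2 of the 19 were an excess and 3 a deficit, against 2337 and 3501 of all 21887 genes. The higher share of deficits did not hold there. Housekeeping genes, which served as a comparison, had 2 excesses of 15, B2m with 9 against 3 and Pgk1 with 4 against 1, and 5 deficits, among them Tbp, Gusb, Ppia and Rplp0. Ywhaz had 10 against 12. The share of excesses among housekeeping genes, 13.3%, was no smaller than the 11.5% of the inflammation list.

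Markers of other cell types were counted the same way, and stand beside 3.30% excesses and 30.6% deficits over all genes. Each of these lists is short, so a few called genes set none of them apart. Of 8 macrophage genes 0 were an excess and 4 a deficit, Lyz2 with 0 against 10, Cd68, Adgre1 and Cx3cr1, and Csf1r had 10 against 8. Of 8 endothelial genes 0 were an excess and Tek was a deficit, with 3 against 6. Of 9 neural genes, 2 were excesses, among them the proneural factor Neurog2 with 3 against 1, and Nes, Syp and Map2 were deficits. Of 7 muscle genes Des was a deficit with 3 against 9, and Myod1 had 10 against 6. Of 7 keratinocyte genes Krt1 was an excess with 6 against 3, and Krt10 and Krt14 were deficits. Of 8 fibroblast markers 0 were an excess and 2, Pdgfra and Thy1, were deficits.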

How the data were processed

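H3K27ac and Flag-Rxra CUT&Tag peak lists from OG2X129 fibroblasts were used as deposited. MACS2 2.1.2, Bowtie2 2.2.5, fastp 0.20.1 and deepTools 3.4.3 are listed with build mm10, per the submitters' processing notes. How the 2 H3K27ac samples of a condition became 1 list is not stated in these sources. The authors' deposited columns are a display score, a fold enrichment (a ratio over the local background), −log10 p and −log10 q per region, and the summit offset in Flag-Rxra lists. The score, −log10 p and summit were not used for any result. H3K27ac lists start at a −log10 q of 1.00 and Flag-Rxra lists at 5.00.

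The members and the gene lists were chosen with earlier results of these data known. Regions on chromosomes 1 to 19, X and Y were used, and 106 DMSO and 126 CD regions elsewhere were left out. Any overlap of at least 1 bp counted. RefSeq GRCm38.p6 gave 21887 protein-coding genes, promoters and microRNAs. No genome of this build was given, so motifs were searched in promoters and not in all regions. Named genes were the 10 strongest regions, the 12 largest surpluses and 6 largest deficits in separate loci, the 8 longest chains, and in each list the 3 genes with most regions and each gene called. Some genes that this rule names are not reported here. Printed promoters and microRNAs were chosen for known roles after their values were seen. Depth is unknown. Intervals are exact (Clopper-Pearson) at 95%, for counting error only. Overlap, gap, merge and count routines were tested on simulated data. Alternatives changed the overlap, the threshold, the list size, the windows and the Flag-Rxra filter. Python 3.11.15, numpy 2.4.6, pandas 2.3.3, scipy 1.17.1 and matplotlib 3.10.9 were used.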

Additional observations from a re-analysis of the deposited data

How the results depend on the processing

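No paired analysis was possible because each H3K27ac condition has 1 list for both of its samples, and no result comes from a test. With 1 list a condition, no value has replicate error, and a difference in depth, in calling or in cell number between the lists cannot be told apart from a difference in H3K27ac. The regions are mostly close to the list's lower limit.

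With both lists at a −log10 q of 2 or more, 9132 regions met the rule in place of 51640. In that setting 1180 genes were a deficit in place of 6687, and 800 an excess in place of 723. Of the regions, 53.1% lay inside a gene in place of 54.1%, and 1.87% had a CD region within 1 kb in place of 15.9%. With equal numbers of the strongest regions, 2337 genes were an excess in place of 723, 3501 a deficit, and 11.7% had a CD region within 1 kb. With gene-end windows of 2.5 kb, 53.4% lay inside a gene and 15.5% had a CD region within 1 kb. Without the Flag-Rxra filter 16.5% had one. Where sharing needed 50% of the bases, 22.1% had one and 14.9% of the regions reached a −log10 q of 2, in place of 14.4%. Where a CD region within 500 bp counted as sharing, 8.40% had one within 1 kb. Some of these follow from the alternative itself, since a list with fewer or excluded CD regions leaves fewer nearby.

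Leaving out 1 Flag-Rxra sample gave 52504 to 53157 regions, 708 to 710 excess and 6545 to 6645 deficit genes, 54.1% inside a gene, 14.5% at 2 or more, and 16.0% to 16.1% with a CD region within 1 kb. The number of regions was 47409 to 55728 over the alternatives other than the stricter threshold.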
